A study of Mus musculus with 9 samples.

Results

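The genes described are 9 antimicrobial genes of phagocytes: the lysozymes Lyz1 and Lyz2, the NADPH oxidase subunits Cybb, Cyba, Ncf1 and Ncf4, the inducible nitric oxide synthase Nos2, and the secreted proteins Slpi and Lcn2. They were taken by name, and each was read from the 1 transcript cluster (the set of probes for a gene) that the platform annotation maps to that symbol alone, or from the brightest such cluster. All 9 were found among the 22180 genes and 33793 transcript clusters of the array. The arrays compared 3 phagocyte populations sorted from mouse Peyer's patches, the lymphoid tissue of the small intestinal wall, with 3 Affymetrix whole-transcript arrays for each. The series compares lysozyme-expressing macrophages (LysoMac) and lysozyme-expressing dendritic cells (LysoDC) that carry C5aR (C5aR+) or lack it (C5aR-), C5aR being a receptor for C5a, a fragment of complement.

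No group was treated or genetically altered per the labels, and strain, age and number of mice, any pooling and the gates were not given in the sources used. The tissue of every group was digested, freed of dead cells and enriched on beads for CD11c, and sorting antibodies recognised CD4, MHCII, C5aR, BST2, SIRP and CD11c. Sorted cells gave little RNA, which was amplified with a low-input kit before labelling. The labels do not say whether replicate arrays stand for separate animals, and p-values therefore cover only the variation among these samples, which may be technical. In sorted bulk samples, fewer cells of a type and less RNA per cell cannot be told apart.

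Lysozyme cleaves the peptidoglycan of bacterial cell walls. Mice carry a pair of neighbouring lysozyme genes, of which Lyz2 is the form of macrophages and other myeloid cells and Lyz1 is best known from the Paneth cells of the intestinal crypts. The phagocyte NADPH oxidase passes electrons across the phagosome membrane to oxygen and yields superoxide: Cybb and Cyba form its membrane core, and Ncf1 and Ncf4 are cytosolic subunits that join it on activation. Nos2 makes nitric oxide from arginine, Slpi inhibits serine proteases such as neutrophil elastase, and Lcn2 binds bacterial siderophores and so withholds iron.

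The 250 bases before the start of Lyz1 and Lyz2 are shown because both genes were strongly expressed in all 3 populations and their sequences are close copies. They come from RefSeq on build GRCm38.p6 and read 5′ to 3′ along each gene, whose strand is minus. Capitals mark a stretch of 50 bases that is identical in both genes and ends at the base before the start. The window before Lyz1 is chr10:117292869-117293118 and that before Lyz2 is chr10:117282273-117282522, and 0 genes are annotated between Lyz2 and Lyz1.
Lyz1: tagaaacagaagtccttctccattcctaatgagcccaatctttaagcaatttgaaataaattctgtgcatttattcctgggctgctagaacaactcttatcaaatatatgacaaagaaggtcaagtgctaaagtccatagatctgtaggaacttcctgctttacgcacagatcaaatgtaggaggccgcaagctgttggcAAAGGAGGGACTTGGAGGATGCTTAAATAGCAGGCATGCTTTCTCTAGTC
Lyz2: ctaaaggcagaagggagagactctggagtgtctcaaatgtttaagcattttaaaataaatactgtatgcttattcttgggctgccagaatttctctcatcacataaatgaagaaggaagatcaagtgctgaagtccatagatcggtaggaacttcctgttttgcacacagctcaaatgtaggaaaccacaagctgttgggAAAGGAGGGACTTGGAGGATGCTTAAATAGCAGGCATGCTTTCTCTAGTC
The sequences matched at 205 of 240 aligned bases (85.4%), and at 92 of the 100 bases nearest the start (92.0%). With both strands searched and overlaps between motifs allowed, AGGAA, the core bound by ETS factors, was found 4 times before each lysozyme gene. It was present in 60.3% of the 32851 upstream regions of that length. TTNNNCAA, a loose pattern of the C/EBP site held by 33.3% of regions, was found 2 times before Lyz1 and 1 time before Lyz2. TATAAA (12.4% of regions), TGANTCA (6.75%) and TTCNNNGAA (7.02%) were not in either window. Upstream sequences were matched for 7 of the 9 genes. Of the other 5, Lcn2 held AGGAA 3 times, Cybb and Slpi 1 time each, and Cyba and Ncf1 0 times.

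Before the genes were compared, the arrays were checked. Values are log2 signals, on which a difference of 1 is a change of 2-fold, and the median of an array lay between 3.39 and 3.65. LysoMac array 2 had the lowest mean r over clusters, at 0.948 with the other LysoMac arrays and 0.933 with the LysoDC arrays, and the highest T cell marker mean (5.16, against 4.14 to 4.68 on the rest). LysoMac array 3 correlated better with the LysoDC arrays (0.968) than with the other LysoMac arrays (0.954). LysoMac arrays varied more (mean variance 0.179) than C5aR+ (0.0958) and C5aR- (0.0854) LysoDC arrays. Macrophage markers (10 of 11 matched) were all above the array median on all 9 arrays. Their mean was 8.44 to 9.08 in LysoMac, 8.93 to 9.55 in the C5aR+ and 8.05 to 8.63 in the C5aR- LysoDC. The higher mean of C5aR+ LysoDC rested on Fcgr1 and Adgre1, which differed from LysoMac by 3.30 and 1.75 (limma, adjusted p = 0.456 and 0.782), while Csf1r, Mertk, C1qb, C1qc and Cx3cr1 averaged higher in LysoMac, without passing. Conventional dendritic cell markers (9 of 9 matched) averaged 6.03 to 6.44, 6.88 to 6.95 and 7.82 to 8.21 in the same order. C5ar1, the gene of the sorted receptor, averaged 4.60, 4.68 and 3.01.

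Both lysozyme genes were among the bright signals of every array, and their means ran from LysoMac through C5aR+ LysoDC to C5aR- LysoDC. Lysozyme defines these populations, so the brightness itself is no separate result. Lyz2 read 11.21, 11.41 and 11.31 on the LysoMac arrays, 10.88, 11.30 and 10.94 on the C5aR+ LysoDC arrays and 10.93, 10.35 and 10.62 on the C5aR- LysoDC arrays. All 3 C5aR- arrays lay below all 3 LysoMac arrays, while C5aR+ arrays overlapped with both neighbours. The means were 11.31 ± 0.10, 11.04 ± 0.23 and 10.63 ± 0.29 (SD, n = 3 each). Lyz2 in C5aR- LysoDC differed from LysoMac by -0.68 ± 0.18 (SE; 95% interval -1.09 to -0.26), which did not pass over all clusters (limma, unadjusted p = 0.00486, adjusted p = 0.140). It was -0.63 without LysoMac array 2 and -0.68 without LysoMac array 3, and it ranged from -0.83 to -0.54 with each array left out in turn. As a ratio, the C5aR- level was between 0.468 and 0.833 of the LysoMac level by that interval.

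Lyz2 in C5aR+ LysoDC stood between the others. It differed by 0.41 ± 0.18 from C5aR- LysoDC (limma, 95% interval -0.01 to 0.82, adjusted p = 0.925) and by -0.27 ± 0.18 from LysoMac (adjusted p = 0.812). Neither step passed, and the arrays overlapped in both.

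Lyz1 read 10.12, 10.26 and 10.38 in LysoMac, 10.31, 10.45 and 9.25 in the C5aR+ and 9.73, 9.56 and 9.44 in the C5aR- LysoDC. C5aR+ array 3 gave the lowest Lyz1 value of the 9, whereas C5aR+ arrays 1 and 2 lay within or just above the LysoMac range. The C5aR- arrays were all below the LysoMac arrays. Lyz1 in C5aR- LysoDC differed from LysoMac by -0.68 ± 0.28 (limma, 95% interval -1.31 to -0.04, adjusted p = 0.354).

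The Lyz1 level of C5aR+ LysoDC turned on that 1 array. Its mean was 10.00 ± 0.65 (SD, n = 3), 0.42 ± 0.28 from C5aR- LysoDC (95% interval -0.22 to 1.06, limma adjusted p = 1) and -0.25 ± 0.28 from LysoMac. Without C5aR+ array 3 these differences were 0.80 (adjusted p = 0.228) and 0.12, so the sign against LysoMac turned. On the same array the plasma cell marker list averaged 5.59, against 4.83 and 4.85 on C5aR+ arrays 1 and 2. The B cell list averaged 4.97, against 4.54 and 4.64, and the stromal and endothelial list 4.68, against 4.38 and 4.44. The epithelial and M cell list was lowest there, at 3.65 against 3.71 and 3.84. Among macrophage markers, Fcgr1 (9.78 against 6.79 and 7.25), Adgre1 (8.97 against 6.80 and 7.11), Cd14, Cd68 and C1qa were highest of the C5aR+ arrays there. Mertk (6.54 against 7.69 and 7.28) and C1qb were lowest, and Csf1r, C1qc and Cx3cr1 lay between. Whether these have a part in the low Lyz1 value was not tested.

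The ratio of the lysozymes can be compared between arrays as a log2 difference of their signals, which is not a ratio of RNA amounts. Lyz2 minus Lyz1 averaged 1.06 ± 0.11 in LysoMac, 1.04 ± 0.58 in the C5aR+ and 1.05 ± 0.24 in the C5aR- LysoDC (SD, n = 3). The means were almost equal, but C5aR+ array 3 gave 1.69 against 0.58 and 0.85 on the other C5aR+ arrays. Part of each signal may come from the near-identical partner, since probes can bind both transcripts, and this was not tested. Of the 8 matched Paneth cell markers, Ang4, Pla2g2a, Defa22 and Defa26 were not above the array median on any array. Itln1 was above it on all 9, at 3.86 to 4.71, and Mmp7, Defa24 and Clps were above it on some. The list averaged 2.90 to 3.24, below every array median. A part of Paneth cell RNA in the Lyz1 signal was not tested.

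**Figure D1:**
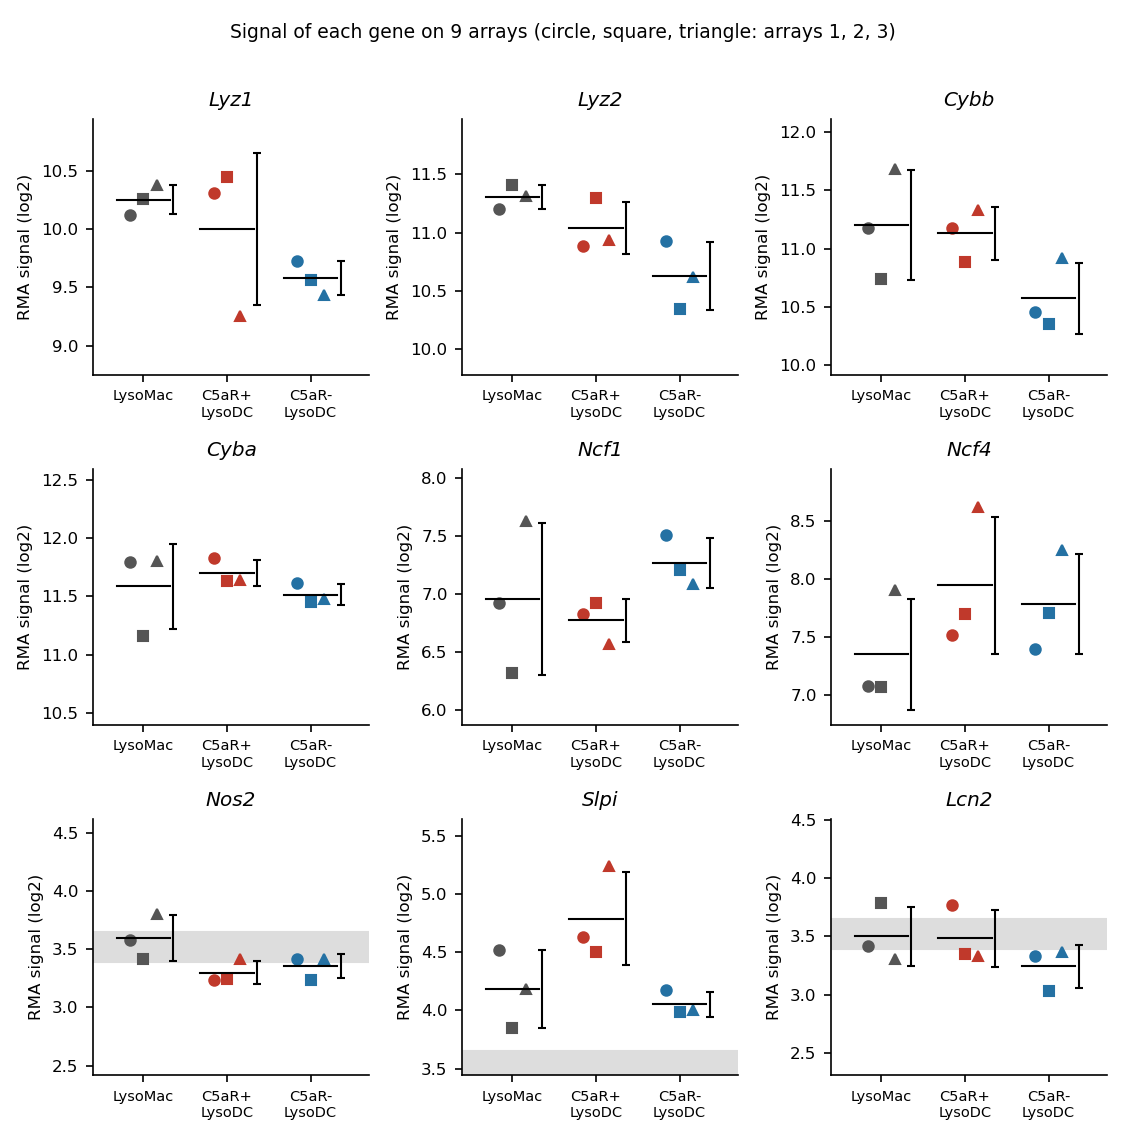
Log2 signal of each of the 9 genes by population, with circle, square and triangle for arrays 1, 2 and 3, bars for the mean, error bars for the SD (n = 3) and a grey band for the range of array medians (3.39 to 3.65). Lysozyme and oxidase genes lie above the band on every array, Slpi lies above it at 3.85 to 5.24, and Nos2 and Lcn2 lie in or near it.

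Of the membrane core of the oxidase, Cybb was lower on average in C5aR- LysoDC and Cyba was nearly level. Cybb, the catalytic subunit, read 11.18, 10.74 and 11.68 in LysoMac, 11.18, 10.89 and 11.33 in the C5aR+ and 10.45, 10.35 and 10.92 in the C5aR- LysoDC. The populations overlapped, because C5aR- array 3 reached past array 2 of both others. The difference of C5aR- LysoDC from LysoMac was -0.63 ± 0.26 (limma, 95% interval -1.21 to -0.05, adjusted p = 0.343), and it was -0.39 without LysoMac array 3 and -0.86 without LysoMac array 2. C5aR+ LysoDC differed from C5aR- LysoDC by 0.56 ± 0.26 (95% interval -0.02 to 1.14, adjusted p = 0.934), and from LysoMac by -0.07 ± 0.26.

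Array 3 gave the highest Cybb value within each of the 3 populations. The macrophage marker list also had its highest mean there, at 9.08, 9.55 and 8.63, but its genes went both ways: Adgre1, Cd68, C1qa and Cd14 were highest on array 3 of each population, while Mertk and C1qb were lowest on C5aR+ array 3. Their part in the Cybb values was not tested.

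Cyba, the partner that stabilises Cybb in the membrane, read 11.79, 11.16 and 11.80 in LysoMac, 11.83, 11.63 and 11.64 in the C5aR+ and 11.62, 11.45 and 11.48 in the C5aR- LysoDC. The C5aR+ arrays lay just above the C5aR- arrays, and LysoMac spanned both. C5aR+ LysoDC differed from C5aR- LysoDC by 0.19 ± 0.19 (limma, 95% interval -0.24 to 0.61, adjusted p = 1). Relative to LysoMac, Cyba differed by 0.11 in C5aR+ and by -0.07 in C5aR- LysoDC, and both signs turned under other scalings of the arrays.

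Within arrays, Cybb minus Cyba averaged -0.39 ± 0.25 in LysoMac, -0.57 ± 0.23 in the C5aR+ and -0.94 ± 0.33 in the C5aR- LysoDC (SD, n = 3). Each mean lay within or near the spread of its neighbour, and the step was not tested.

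For the cytosolic subunits, no population was apart from both of the others. Ncf1, the organiser p47phox, read 6.93, 6.32 and 7.63 in LysoMac, 6.83, 6.93 and 6.57 in the C5aR+ and 7.51, 7.21 and 7.09 in the C5aR- LysoDC. The C5aR+ arrays were all below the C5aR- arrays, and the LysoMac arrays spread over the range of both. C5aR+ LysoDC differed from C5aR- LysoDC by -0.49 ± 0.29 (limma, 95% interval -1.16 to 0.17, adjusted p = 1).

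Ncf4, the phosphoinositide-binding subunit p40phox, read 7.08, 7.07 and 7.90 in LysoMac, 7.52, 7.69 and 8.62 in the C5aR+ and 7.40, 7.71 and 8.24 in the C5aR- LysoDC. As for Cybb, array 3 was highest in each population, and all 3 populations overlapped. The widest margin was 0.59 ± 0.35 between C5aR+ LysoDC and LysoMac (limma, 95% interval -0.20 to 1.39, adjusted p = 0.809), and it was 0.26 without C5aR+ array 3. Without that array the difference from C5aR- LysoDC went from 0.16 to -0.18. Ncf1 minus Ncf4 was -2.05 on C5aR+ array 3, and it averaged -0.39 ± 0.32 in LysoMac, -1.17 ± 0.76 in the C5aR+ and -0.51 ± 0.63 in the C5aR- LysoDC (SD, n = 3).

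**Figure D2:**
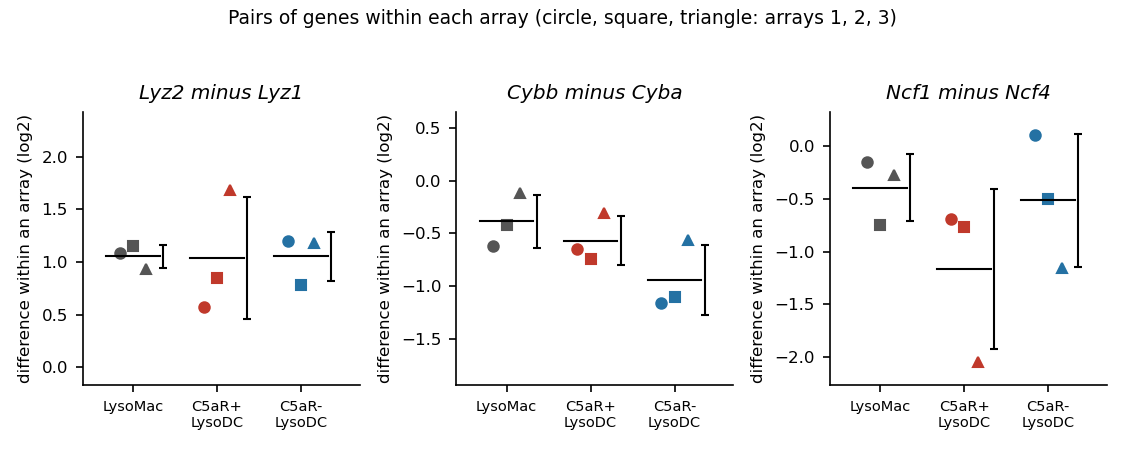
Log2 difference between paired genes on the same array (Lyz2 minus Lyz1, Cybb minus Cyba, Ncf1 minus Ncf4) by population, with marks for arrays 1, 2 and 3, bars for the mean and error bars for the SD (n = 3). The lysozyme means are 1.04 to 1.06 in all populations, while C5aR+ array 3 stands apart at 1.69 for the lysozymes and -2.05 for Ncf1 minus Ncf4.

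Nos2 was at the level of a typical probe set. It read 3.58, 3.41 and 3.80 in LysoMac, 3.23, 3.24 and 3.41 in the C5aR+ and 3.41, 3.23 and 3.41 in the C5aR- LysoDC, and it was above the median of its own array on 2 of 9 arrays, both of LysoMac. Exactly the same value stood on 4 arrays (3.41) and on another 2 (3.23), so these arrays carry no order among themselves. C5aR+ LysoDC differed from LysoMac by -0.30 ± 0.14 (limma, 95% interval -0.63 to 0.02), and C5aR- LysoDC by -0.25 ± 0.14. These are differences of dim signals, and no fold is given.

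Slpi showed the widest margin between the LysoDC populations of the 9 genes. It read 4.52, 3.85 and 4.18 in LysoMac, 4.63, 4.50 and 5.24 in the C5aR+ and 4.18, 3.98 and 4.001 in the C5aR- LysoDC. All C5aR+ arrays lay above all C5aR- arrays, and LysoMac array 1 overlapped with the C5aR+ arrays. C5aR+ LysoDC differed from C5aR- LysoDC by 0.74 ± 0.23 (limma, 95% interval 0.22 to 1.26, or 1.16-fold to 2.39-fold), with an unadjusted p of 0.0108 and an adjusted p of 0.553. The C5aR- signals lay just above the array medians (3.39 to 3.65), so these are folds of dim signals.

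Against LysoMac, Slpi in C5aR+ LysoDC differed by 0.61 ± 0.23 (limma, 95% interval 0.09 to 1.13, adjusted p = 0.794). C5aR+ array 3 was the highest, and without it the differences were 0.51 from C5aR- LysoDC and 0.38 from LysoMac. C5aR- LysoDC differed from LysoMac by -0.13 ± 0.23 (95% interval -0.65 to 0.39).

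Lcn2 read 3.42, 3.79 and 3.30 in LysoMac, 3.77, 3.35 and 3.34 in the C5aR+ and 3.33, 3.03 and 3.37 in the C5aR- LysoDC. The populations overlapped, and the signal was above the array median only on LysoMac array 2 and C5aR+ array 1. The differences were 0.24 ± 0.19 between the LysoDC populations, -0.02 ± 0.19 from LysoMac to C5aR+ LysoDC, a sign that turned under other scalings, and -0.26 ± 0.19 from LysoMac to C5aR- LysoDC. Neutrophils carry Lcn2 and Slpi in quantity, and their markers (12 of 12 matched) averaged 3.50 to 3.78 in LysoMac, 3.57 to 3.66 in the C5aR+ and 3.40 to 3.58 in the C5aR- LysoDC. S100a8, S100a9, Camp, Ltf and Retnlg were not above the array median on any array, while Csf3r, Cxcr2 and Ngp were above it on all 9. Csf3r read 7.84 to 9.30 in LysoMac, 7.86 to 8.89 in the C5aR+ and 7.06 to 8.15 in the C5aR- LysoDC. The part of neutrophils in the Lcn2 and Slpi values was not tested.

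Of the 9 genes, limma called 0 in each comparison at an adjusted p under 0.05. Between C5aR+ and C5aR- LysoDC, 0.101% of all clusters passed. At an unadjusted p under 0.05 stood 1 gene, Slpi, where 5.46% of all clusters did. The arrays did not overlap for 3 genes (Cyba and Slpi higher in C5aR+ LysoDC, Ncf1 lower), against 10.2% of clusters. The median difference of the genes was 0.24, and that of all clusters 0.02.

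Between C5aR+ LysoDC and LysoMac, 0.0503% of all clusters passed. Here too Slpi was the 1 gene at an unadjusted p under 0.05 (6.19% of clusters), no gene was free of overlap (7.89% of clusters), and the medians were -0.07 for the genes and -0.04 for all clusters. Between C5aR- LysoDC and LysoMac, 1.53% of clusters passed. Lyz1, Lyz2 and Cybb had an unadjusted p under 0.05 (13.2% of clusters), and the arrays did not overlap for 2 genes, Lyz1 and Lyz2, both lower in C5aR- LysoDC, against 14.2% of clusters. The medians were -0.25 and -0.06. The comparisons share arrays pairwise, so their counts are not independent.

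Over the 3 populations together, limma's F test called 0 of 9 genes, against 0.755% of clusters. At an unadjusted p under 0.05 stood 2 (Lyz2 and Slpi), against 9.2% of clusters, and the smallest adjusted p was 0.347 (Lyz2). An adjusted p above the threshold does not show that levels were alike. Of the 27 differences, 5 had a 95% interval that left out 0. The largest difference was 1.67-fold (Slpi, a dim signal), and the farthest bound of any interval was 2.61-fold (Ncf4). One alternative changed calls, a weight for each array. With it, Lyz2 (-0.58, adjusted p = 0.0224) and Cybb (-0.57, adjusted p = 0.0405) passed as lower in C5aR- LysoDC than in LysoMac. With these weights 6682 of all 33793 clusters passed in that comparison, against 518 in the main fit, so passing was not particular to the 2 genes. Over all alternatives run, the adjusted p in that comparison lay between 0.0224 and 0.450 for Lyz2 and between 0.0405 and 0.706 for Cybb.

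**Figure D3:**
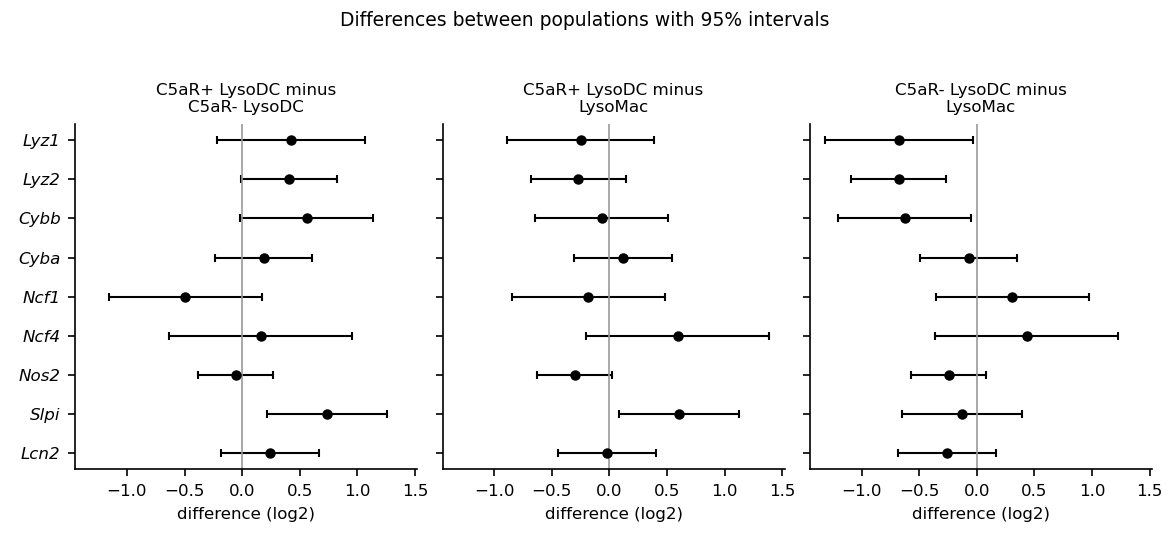
Differences between populations for each of the 9 genes on the log2 scale, with points for the estimate and bars for the limma 95% interval (3 arrays per population), 1 panel per comparison. Of the 27 intervals, 5 leave out 0: Slpi in both comparisons of C5aR+ LysoDC, and Lyz1, Lyz2 and Cybb between C5aR- LysoDC and LysoMac.

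Around these genes, 7 lists of pathway partners were read in the same fit, with 90 of 98 genes matched. The lists were chosen with earlier results of these data known. The shares of all clusters given here are also those to set beside the counts of each list below. Between C5aR+ and C5aR- LysoDC, 0 list genes rose and 2 fell (0.101% of all clusters passed), with 12 at an unadjusted p under 0.05 (5.46% of clusters). Between C5aR+ LysoDC and LysoMac 0 passed (0.0503% of clusters), with 8 at an unadjusted p under 0.05 (6.19%). Between C5aR- LysoDC and LysoMac 4 rose and 0 fell (1.53% of clusters passed), with 24 at an unadjusted p under 0.05 (13.2%). The median difference of the 90 genes was 0.07, -0.04 and -0.10 in these comparisons.

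Among the partners of the phagocyte oxidase (6 of 9 matched) 0 passed in any comparison (limma), with 1, 0 and 1 at an unadjusted p under 0.05 and median differences of 0.00, 0.07 and 0.12. The brightest partners were Rac2, the small GTPase that switches the oxidase on in phagocytes, and Prkcd, a kinase that phosphorylates Ncf1. Rac2 read 8.48, 7.79 and 9.50 in LysoMac, 8.72, 8.80 and 10.61 in the C5aR+ and 10.86, 11.17 and 10.84 in the C5aR- LysoDC. The C5aR- arrays were above all the others. Rac2 differed by 2.37 ± 0.54 between C5aR- LysoDC and LysoMac (limma, adjusted p = 0.0794, between 0.00330 and 0.300 over the alternatives), and by -1.58 ± 0.54 between C5aR+ and C5aR- LysoDC (adjusted p = 0.628). Prkcd lay between 9.11 and 9.80 on all arrays, with a largest difference of 0.07 ± 0.21.

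None of the 7 matched genes of other NADPH oxidases passed (limma), and 0 had an unadjusted p under 0.05. Nox4 and Nox3, the brightest of them, averaged between 3.35 and 4.01, near the array medians. Of the 12 nitric oxide and arginine genes 0 passed, with 1, 2 and 3 at an unadjusted p under 0.05. Arg2, the mitochondrial arginase that draws on the substrate of Nos2, averaged 8.58 in LysoMac, 8.83 in the C5aR+ and 8.45 in the C5aR- LysoDC. Spr, an enzyme in the synthesis of the Nos2 cofactor tetrahydrobiopterin, averaged 7.59, 7.16 and 7.23.

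Of the 20 matched antioxidant genes 0 passed (limma), with 2, 1 and 6 at an unadjusted p under 0.05. Sod1, which turns superoxide into hydrogen peroxide, read 10.14, 9.78 and 11.03 in LysoMac, 10.80, 10.86 and 11.27 in the C5aR+ and 11.18, 11.48 and 11.51 in the C5aR- LysoDC. The C5aR- arrays lay above the LysoMac arrays, with a difference of 1.07 ± 0.30 (adjusted p = 0.147). Gpx1, which reduces peroxides with glutathione, averaged 10.85, 10.73 and 10.86. Of the 8 other lysozyme and lysozyme-like genes 0 passed, with 0, 1 and 1 at an unadjusted p under 0.05. Their brightest members, Spaca3 and Lyzl6, averaged between 2.88 and 3.998, while Lyz1 and Lyz2 were the lysozyme genes with signals far above the array medians.

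Of the 25 other antimicrobial genes, 2 passed between C5aR+ and C5aR- LysoDC, 0 between C5aR+ LysoDC and LysoMac and 2 between C5aR- LysoDC and LysoMac (limma). At an unadjusted p under 0.05 stood 4, 3 and 8, against 5.46%, 6.19% and 13.2% of all clusters. In the last comparison 16 differences were below 0 and 9 above, with a median of -0.24, and both genes that passed were higher in C5aR- LysoDC. Pglyrp1, a secreted peptidoglycan-binding protein, read 4.78, 5.25 and 4.57 in LysoMac, 4.74, 5.25 and 4.24 in the C5aR+ and 7.43, 7.44 and 6.99 in the C5aR- LysoDC. Its C5aR- arrays stood well above all the others. It was 2.42 ± 0.28 higher in C5aR- LysoDC than in LysoMac (limma, adjusted p = 0.00554) and fell from C5aR- to C5aR+ LysoDC, with a difference of -2.54 ± 0.28 (adjusted p = 0.0229, and between 0.00707 and 0.151 over the alternatives, 6 of 19 of which ended the call). Pglyrp2, an amidase that cuts peptidoglycan, averaged 2.93 in LysoMac, 3.02 in the C5aR+ and 4.31 in the C5aR- LysoDC. The first 2 means are below every array median, so its differences of 1.37 ± 0.18 from LysoMac (adjusted p = 0.00881) and -1.29 ± 0.18 between the LysoDC populations (adjusted p = 0.0470, lost in 10 of 18 alternatives) are given as differences of signals only.

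Of the 12 other protease inhibitors, 2 rose from LysoMac to C5aR- LysoDC, and 0 passed in the other comparisons (limma). At an unadjusted p under 0.05 stood 4 between the LysoDC populations, 1 between C5aR+ LysoDC and LysoMac and 5 between C5aR- LysoDC and LysoMac. The shares of all clusters were 5.46%, 6.19% and 13.2%. Serpinb1a, an intracellular inhibitor of neutrophil serine proteases, read 3.37, 4.18 and 3.65 in LysoMac, 4.81, 4.84 and 4.93 in the C5aR+ and 8.21, 7.82 and 5.88 in the C5aR- LysoDC. The populations were fully separated, with C5aR- array 3 well below the other C5aR- arrays. The rise from LysoMac, whose signals lay near the array medians, to C5aR- LysoDC was 3.57 ± 0.52 (adjusted p = 0.0126, lost in 3 of 19 alternatives). Between the LysoDC populations the difference was -2.45 ± 0.52 (adjusted p = 0.191), and it passed without C5aR- array 3 (-3.16, adjusted p = 0.00664). Cst3, cystatin C, an inhibitor of cysteine proteases, was 1.02 ± 0.19 higher in C5aR- LysoDC than in LysoMac (adjusted p = 0.0393), but 12 of 19 alternatives lost that call. Epithelial and M cell markers averaged 3.51 to 3.77 in LysoMac, 3.65 to 3.84 in the C5aR+ and 4.27 to 4.69 in the C5aR- LysoDC, and dendritic cell markers were also highest there. From LysoMac to C5aR- LysoDC the ranges also went from 4.07 to 4.12 up to 4.92 to 5.02 for B cell markers. For plasma cell markers they went from 4.06 to 4.47 up to 4.96 to 5.41, and for stromal and endothelial markers from 3.81 to 4.16 up to 4.59 to 4.77. Genes within each of these lists went both ways. In the epithelial list Gp2 and Pigr differed by 3.86 and 3.23, but Vil1 and Krt20 by -0.49 and -0.30. Cr2 and Cd79b of the B cell list differed by 1.64 and -0.71. For Jchain and Sdc1 of the plasma cell list the values were 3.10 and -0.83, and for Lum and Cdh5 of the stromal list 2.77 and -0.30. The part of these lists in the results above, those of the lysozymes and Cybb included, was not tested.

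**Figure D4:**
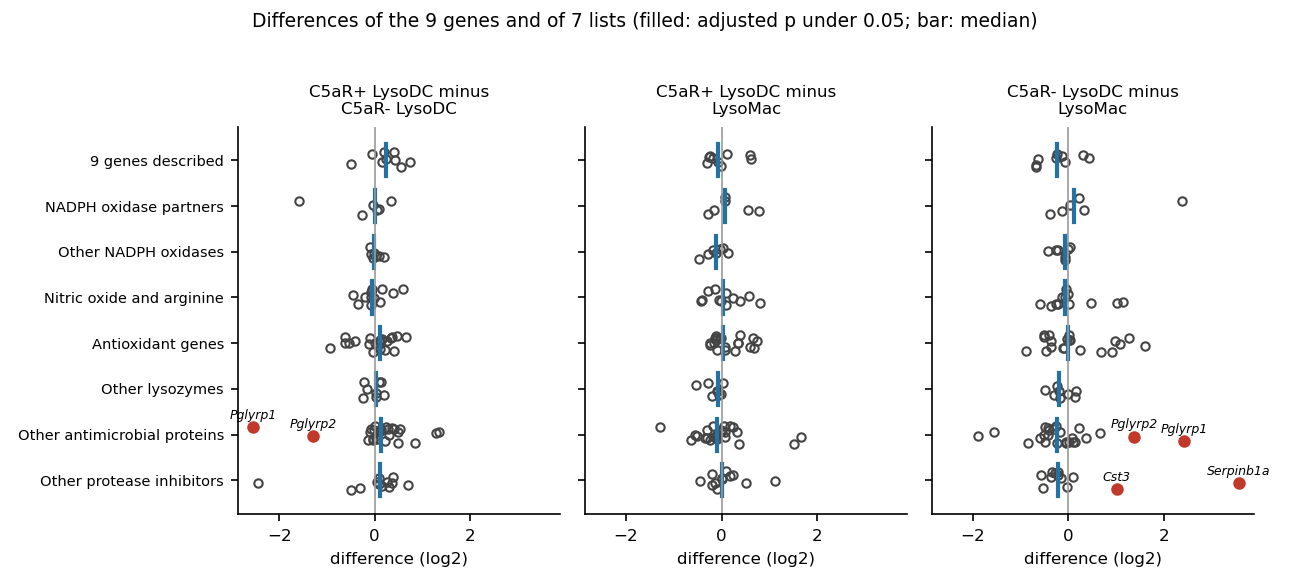
Differences on the log2 scale for the 9 genes described (top line) and each matched gene of the 7 lists in each comparison, with 1 point per gene, filled where limma's adjusted p was under 0.05, and a bar for the median of the list. The points that passed are 2 between C5aR+ and C5aR- LysoDC, both below 0, and 4 between C5aR- LysoDC and LysoMac, all above 0.

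**Figure D5:**
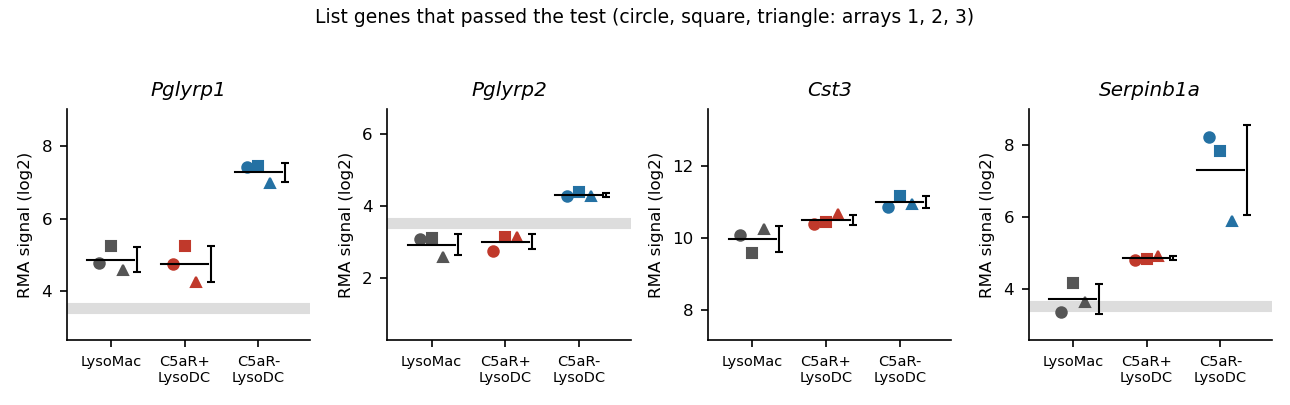
Log2 signal by population of the 4 list genes that passed in a comparison, with circle, square and triangle for arrays 1, 2 and 3, bars for the mean, error bars for the SD (n = 3) and a grey band for the range of array medians. Pglyrp1 in C5aR- LysoDC sits between 6.99 and 7.44, above all the other arrays, and Serpinb1a differs between C5aR- arrays, from 5.88 to 8.21.

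The genes with the most similar pattern to each of the 9 were taken by Pearson's r of log2 values over the 9 arrays, among 6071 or 6072 candidate genes. The points share their populations and hybridisations, and the values are a description with no test. Lyz2 was closest to Tmem9 (r = 0.951), Tmem220 (0.950) and Apoe (0.943), the last a lipid carrier of macrophages. Lyz1 was closest to Icos (0.951), Tmem18 (0.939) and Zfp362 (0.915). Cybb was closest to the complement gene C1qa (0.985), the receptor kinase Axl (0.983) and mitochondrial superoxide dismutase Sod2 (0.981). The nearest to Cyba was Xaf1 (0.970), to Ncf1 Aldh1l1 (0.914) and to Ncf4 Depdc7 (0.971). For Slpi these were Hilpda (0.937), Ifi204 (0.924) and C5ar2 (0.909), a second C5a receptor. The nearest to the dim genes were Slc38a10 for Nos2 (0.922) and Dhdh for Lcn2 (0.957). For some members the named genes head a large group: r was over 0.9 for 104 genes with Ncf4, 91 with Cybb and 35 with Cyba. For the others this count was 16 (Lyz2), 9 (Lyz1), 6 (Lcn2), 4 (Slpi), 3 (Nos2) and 1 (Ncf1).

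The order of the means differed among the 9 genes. Lyz1, Lyz2, Cybb and Lcn2 ran LysoMac, C5aR+ LysoDC, C5aR- LysoDC from high to low, and Cyba and Slpi ran C5aR+ LysoDC, LysoMac, C5aR- LysoDC. Ncf1 was highest in C5aR- LysoDC, Ncf4 in C5aR+ LysoDC and Nos2 in LysoMac. No neighbours in these orders were separated by a difference that passed, and the places of Cyba and Lcn2 turned with the scaling of the arrays.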

How the data were processed

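Total RNA of 9 sorted samples was hybridised to Affymetrix whole-transcript arrays. The deposited values are log2 signals per transcript cluster, made with RMA and Affymetrix Power Tools per the submitters' processing notes. Versions, settings and genome build: not given in the sources used here. The values were used as they stood. Of the 33793 clusters, 23521 have 1 symbol in the platform annotation, 1814 several and 8458 none. Titles gave the groups, although the source fields of 2 C5aR- arrays (2 and 3) name a different receptor.

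A single limma fit (version 3.58.1, R 4.3.3) of all 9 arrays, with a mean for each population and 6 residual degrees of freedom, gave all two-sided tests. P-values were adjusted over all clusters by Benjamini-Hochberg, with 0.05 as threshold, and the code was tested on simulated data. Precision is limited by the number of arrays, and the SE of a difference was 0.14 to 0.35 for the 9 genes. The members and lists were chosen with earlier results of these data known. The text names every member, the list genes that passed (at most 4 per list, or the 2 brightest where none did), and the 3 genes nearest to a member in pattern, of which only the nearest is printed for some. List genes that were not matched were not analysed here.

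Same-numbered arrays of C5aR+ LysoDC and LysoMac shared deviations from the means of their groups, with r = 0.16, 0.26 and 0.41, and no label says why. In the other comparisons not every r was over 0.1. The alternatives tried comprised median centring, a replicate block, quantile and cyclic loess normalization, filters on dim or multiply annotated clusters, an intensity trend with robust variances, weights per array or population, fits of the compared populations alone, the mean of a gene's clusters, and leaving out each array. Sequences were read and compared with Biopython 1.88 from RefSeq tables.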

Additional observations from a re-analysis of the deposited data

How the results depend on the processing

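The count of the 9 genes called stayed at 0 in every comparison and alternative except 1. With array weights, 2 passed between C5aR- LysoDC and LysoMac, where 6682 of all 33793 clusters also passed. The count of list genes called moved more. With a replicate block it went from 2 to 1 between the LysoDC populations, while the count of all clusters called went from 34 to 59. It was 1 among clusters above the median (55 clusters called) and 0 in a fit of the compared populations alone (7 clusters called). With array weights it was 3 of 90 between C5aR+ LysoDC and LysoMac, where 1366 of all 33793 clusters were called, against 17 in the main fit. Between C5aR- LysoDC and LysoMac it was 29, against 4, with 6682 clusters called, against 518. A fit of these populations alone gave 2 list genes and 237 clusters there. Leaving out single arrays gave 0 to 2 between the LysoDC populations and 0 throughout between C5aR+ LysoDC and LysoMac. Between C5aR- LysoDC and LysoMac it gave 1 (without C5aR- array 2) to 8 (without LysoMac array 3). The counts over all clusters without single arrays are not given here. The replicate block changed no call of the 9 genes. Why the calls moved was not tested.

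Differences near 0 changed sign. C5aR+ LysoDC minus LysoMac turned for Lcn2 to 0.037 (median centring), 0.029 (quantile), 0.054 (loess) and 0.079 (array weights), for Cyba to -0.056 (quantile), -0.092 (loess) and -0.066 (array weights), for Prkcd to -0.10 (quantile) and -0.14 (loess), and with array weights for Pglyrp1 to 0.032 and Pglyrp2 to -0.056. C5aR- LysoDC minus LysoMac turned for Cyba to 0.0043 (median centring), for Prkcd to -0.12 (quantile) and -0.20 (loess), and for Gpx1 to -0.19 (quantile) and -0.22 (loess, array weights). No scaling moved the median of all clusters by over 0.1.

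Leaving out single arrays also turned signs. Between the LysoDC populations the ranges were -0.18 to 0.39 for Ncf4, -0.11 to 0.16 for Prkcd, -0.11 to 0.0031 for Nox4, -0.11 to 0.049 for Nox3, -0.17 to 0.054 for Spr and -0.019 to 0.22 for Spaca3. Between C5aR+ LysoDC and LysoMac they were -0.47 to 0.12 for Lyz1, -0.30 to 0.17 for Cybb, -0.10 to 0.22 for Cyba, -0.50 to 0.15 for Ncf1, -0.16 to 0.12 for Lcn2, -0.078 to 0.27 for Prkcd, -0.090 to 0.54 for Arg2, -0.31 to 0.00075 for Gpx1, -0.22 to 0.020 for Spaca3, -0.38 to 0.13 for Pglyrp1 and -0.084 to 0.21 for Pglyrp2. Between C5aR- LysoDC and LysoMac they were -0.28 to 0.037 for Cyba, -0.010 to 0.64 for Ncf1, -0.30 to 0.037 for Slpi, -0.12 to 0.23 for Prkcd, -0.35 to 0.021 for Nox4, -0.47 to 0.16 for Arg2 and -0.19 to 0.13 for Gpx1. Nos2, Lcn2 and Pglyrp2 were limited by signals near or below the array medians. So were Slpi, which was above the median on all 9 arrays but as low as 3.85, and Serpinb1a in LysoMac, at 3.37 to 4.18. On average over clusters, arrays varied most within LysoMac, but each cluster had a single variance over all populations. This makes p-values of comparisons with LysoMac too small on balance, and those between the LysoDC populations too large, though not for every gene. With 1 weight per population, 112 clusters passed between the LysoDC populations, against 34 in the main fit. Between C5aR- LysoDC and LysoMac 254 passed, against 518. With these weights 0 of the 9 genes were called in any comparison. The SD in LysoMac, C5aR+ and C5aR- LysoDC was 0.10, 0.23 and 0.29 for Lyz2 and 0.13, 0.65 and 0.15 for Lyz1. For Cybb it was 0.47, 0.23 and 0.30.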
